A study of Mus musculus with 33 samples.

Results

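The genes of the nuclear-encoded subunits of respiratory chain complexes I to IV were followed in mouse liver and liver tumours. The list was set by name and holds 48 genes, 29 of complex I, 4 of complex II, 6 of complex III and 9 of complex IV. Each gene was read from the probe set that carries its symbol alone and has the highest mean over all columns of the deposited table. This gave values for 46 of the 48 genes, among 18193 genes measured in the same way. Ndufs6 of complex I and Cox7b of complex IV had no such probe set and were not analysed here. Ndufa4 is kept with complex I by its name, although its protein is now assigned to complex IV.

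Expression was measured on 21 Affymetrix arrays of liver RNA from mice aged 12 months, whose strain is labelled as a mixture of FVB/NT, 129S1/Svlmj and C57BL/6NT. The groups were wildtype normal liver (wt, n = 7), normal liver of E2F3a knockout mice (3aKO, n = 5), hepatocellular carcinoma of E2F1 knock-in mice (1KI, n = 5) and hepatocellular carcinoma of E2F3b knock-in mice (3bKI, n = 4). The tumours arose spontaneously, and the labels do not give the locus that carries the knock-in. In 1KI and 3bKI every array is a tumour of the altered genotype, so effects of genotype and of tumour cannot be told apart. The labels do not say which arrays come from separate animals, so p-values measure the spread between these arrays, which may be technical. Where tumours or livers are counted below, each stands for 1 array. The authors normalized wt and 3aKO together with 1KI (normalization 1) and again with 3bKI (normalization 2), so 1KI and 3bKI were not set against each other.

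The respiratory chain sits in the inner mitochondrial membrane and passes electrons from NADH and succinate to oxygen while it pumps protons. Complex I oxidises NADH, complex II oxidises succinate and is also an enzyme of the TCA cycle, complex III reduces cytochrome c and complex IV reduces oxygen. A few core subunits of complexes I, III and IV are encoded by mitochondrial DNA, and all others, with the whole of complex II, by nuclear genes. Hepatocytes are rich in mitochondria and draw most of their ATP from this chain, and a shift of tumour cells toward glycolysis is a long-standing theme of cancer biology.

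Some arrays stood apart before any comparison. On the first principal component of all genes, which held 32.3% of the variance in normalization 1, 1KI replicates 3 and 4 lay at 61.0 and 69.8, and the other 15 arrays lay between -17.0 and 5.08. The beta-actin control probe sets, read at both transcript ends as a measure of RNA integrity, had a log2 ratio (3' over 5') of 0.70 to 0.87 in 3bKI, 1.06 to 1.35 in 3aKO and 0.65 to 1.37 in wt. For the Gapdh control probe sets the ratio was 0.14 to 0.18 in 3bKI, 0.15 to 0.26 in 3aKO and 0.205 to 0.32 in wt (normalization 2). By this second measure 3bKI overlapped 3aKO. Sex, read from Xist and Y-linked genes, was mixed in wt, 3aKO and 1KI, while 3bKI held 3 females and 1 array of unclear sex (replicate 2). The mean log2 level of 9 hepatocyte markers was 12.56 to 12.79 in 3bKI, below 12.98 to 13.14 in 3aKO and 12.84 to 13.15 in wt. That of 8 stellate cell markers was 8.14 to 9.04 in 3bKI and 7.82 to 8.38 in 3aKO. Of the 9 hepatocyte markers, 8 were below 0 in 3bKI against 3aKO, with a median log2 change of -0.33 and 2 called lower. The E2f1 and E2f3 probe sets need not lie in the altered part of these genes and do not check the alleles. Against wt, E2f3 had a log2 change of -0.19 ± 0.11 (SE) in 3aKO (limma adjusted p = 0.700) and 0.57 ± 0.13 in 1KI, with an adjusted p of 0.0780. In the 3bKI tumours it was 0.10 ± 0.12, with an adjusted p of 0.660. For E2f1 the change was 0.17 ± 0.11 in the 1KI tumours, with an adjusted p of 0.389, so neither gene was called in the tumours labelled with its knock-in.

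The subunit genes gave bright signals in wt liver: the median of the 46 genes was 11.81 on the log2 scale, against 6.49 over all genes, and 43 of the 46 lay at or above the 90th percentile. Signals of different probe sets depend on the probes as well as on the transcript, so they do not rank the genes. The 3 dim genes were Ndufs5 (6.97), Cox7c (5.91) and Ndufb4 (3.78), and changes in transcripts read this dimly are poorly measured. In 28 of the 46 genes more than 1 probe set carried the symbol.

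Promoters are shown for 5 genes because the study turns on E2F factors, which bind DNA, and because many genes of oxidative phosphorylation carry sites for NRF1, a regulator of mitochondrial biogenesis. RefSeq promoters (GRCm38.p6) were matched for 38 of the 48 genes, with none for Cox4i1, Cox6c, Cyc1, Ndufa2, Ndufb9, Ndufs1, Sdhc, Uqcrb, Uqcrc2 and Uqcrq. Each sequence is the 120 bases before the annotated start, 5′ to 3′, with capitals for an E2F form (TTCCCGC), the NRF1 form GCATGCG or the GABP form CCGGAAG.
Ndufs3 promoter, chr2:90904722-90904841, minus strand: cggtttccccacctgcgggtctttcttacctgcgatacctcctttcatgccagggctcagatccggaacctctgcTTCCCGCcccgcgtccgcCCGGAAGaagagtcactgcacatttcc
Ndufa6 promoter, chr15:82354292-82354411, minus strand: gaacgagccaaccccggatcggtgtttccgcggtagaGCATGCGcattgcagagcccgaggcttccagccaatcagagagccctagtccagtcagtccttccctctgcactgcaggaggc
Sdhb promoter, chr4:140961151-140961270, plus strand: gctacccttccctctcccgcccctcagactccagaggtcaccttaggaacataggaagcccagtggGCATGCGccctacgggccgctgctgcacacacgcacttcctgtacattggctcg
Sdha promoter, chr13:74350241-74350360, minus strand: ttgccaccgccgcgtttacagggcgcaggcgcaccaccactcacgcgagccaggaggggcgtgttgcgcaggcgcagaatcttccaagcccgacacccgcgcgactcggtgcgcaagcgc
Ndufa9 promoter, chr6:126849145-126849264, minus strand: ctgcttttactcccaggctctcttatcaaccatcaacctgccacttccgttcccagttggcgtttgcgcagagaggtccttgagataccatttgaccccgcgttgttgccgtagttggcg
Ndufs3, a core subunit of complex I, is shown as a member with an E2F form, and the other 4 belong to the genes called lower in 3bKI tumours.

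The motif search covered the 250 bases before the start on both strands. An E2F form (the forms searched were TTCCCGC and also TTGGCGC and further TTCGCGC and lastly TTGCCGC) was present in 3 of 38 members (7.9%), namely Cox5a, Cox5b and Ndufs3, and in 9.0% of all 27025 gene promoters. GCATGCG was present in 4 members (10.5%), namely Cox6a1, Ndufa6, Ndufa8 and Sdhb, against 3.4% of all promoters. CCGGAAG was present in 6 members (15.8%), against 7.8%. AAGGTCA, the form bound by estrogen-related receptors, was present in 3 (7.9%) against 4.7%, AGATGGC, a YY1 form, in 1 (2.6%) against 5.2%, and CCAAT in 12 (31.6%) against 37.5%. Of the 11 genes called lower in 3bKI tumours against 3aKO liver, 7 had a promoter here, with 0 E2F forms, GCATGCG in 2 (Ndufa6 and Sdhb) and CCAAT in 4. Such matches describe the letters of the window and not binding.

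The comparison of 3aKO with wt liver asked whether loss of E2F3a alters the normal liver at this age. No subunit gene differed: limma called 0 of the 46 higher and 0 lower at an adjusted p under 0.05, as it called 0.0% of all genes in either direction. At an unadjusted p under 0.05 there were 0 of the 46, against 7.46% of all genes. No gene had separate groups, against 0.286% of all genes below and 0.214% above. The median log2 change was 0.05, with 38 of the 46 above 0, against a median of 0.0017 over all genes. Ndufa4 had the largest change, 0.16 ± 0.08 (adjusted p = 0.680), and its levels of 12.32, 12.66, 12.47, 12.64 and 12.47 in 3aKO overlapped the wt range of 12.18 to 12.47 (median 12.37). Among females only, with 3 arrays in each group, the median was -0.0058 with 24 of 46 below 0.

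The spread between arrays was narrower in 3aKO than in wt for most members, which was not tested. The SD between 3aKO arrays was above that between wt arrays in 8 of the 46 genes (17.4%), against 36.8% of all genes, and its median over the 46 was 0.067, against 0.121 in wt. Cox5b, a subunit of complex IV, lay between 13.34 and 13.39 in the 5 3aKO livers and between 13.09 and 13.48 in the 7 wt livers. Uqcrc1, a core protein of complex III, had the largest SD of all members in wt (0.28), with 11.43 as the lowest, 11.78 as the median and 12.23 as the highest value. Its values in 3aKO were 12.07, 11.93, 11.90, 11.90 and 11.94, inside the wt range.

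1KI tumours showed lower means for most subunit genes, but no gene passed the test. Against wt, 40 of the 46 were below 0 with a median log2 change of -0.12, against -0.03 over all genes, and limma called 0 lower and 0 higher (all genes: 0.033% lower, 0.209% higher). At an unadjusted p under 0.05 there were 8 of the 46 (17.4%), a share near the 19.0% of all genes. No gene had every 1KI tumour below or above every wt liver (all genes 0.863% and 1.12%). By complex, the median was -0.12 in complex I (24 of 28 below 0), -0.19 in complex II (4 of 4), -0.19 in complex III (6 of 6) and -0.02 in complex IV (6 of 8). Against 3aKO, 44 of the 46 were below 0 with a median of -0.18 (all genes -0.02), again with 0 called, as for 0.0% of all genes, and 18 had an unadjusted p under 0.05 (39.1% against 14.0% of all genes).

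The lower level was seen in 2 of the 5 1KI tumours. The mean over the 46 genes, as the log2 difference from the wt mean, was 0.01, -0.05, -0.34, -0.33 and 0.04 in 1KI replicates 1 to 5, and between -0.06 and 0.05 in the wt arrays. In replicates 3 and 4, 35 and 33 genes lay below the wt range, and 29 genes did so in both, while this held for 26.9% and 27.2% of all genes. The 7 genes that lay within or above the wt range in both were Ndufa1, Ndufa2, Ndufa6, Ndufa7, Ndufb7, Ndufs8 and Uqcrc1. With both arrays left out, the median against wt was -0.0081 with 25 of 46 below 0, and against 3aKO it was -0.05 with 32 of 46 below 0. All 6 genes of complex III stayed below 0 in both fits, with medians of -0.05 against wt and -0.11 against 3aKO. The same 2 arrays had hepatocyte marker means of 12.85 and 12.30, against 13.09 to 13.18 in the other 1KI tumours. Of these 9 markers 6 were below 0 in 1KI against wt and 3 above, with a median of -0.05. Their SD in 1KI ran from 0.03 for Ttr and 0.04 for Alb to 1.97 for Cyp2e1 (log2 change -1.06). Actin ratios were 0.91 and 0.95 in replicates 3 and 4, against 1.05 to 1.28 in the other 1KI tumours. The Gapdh ratios (3' over 5') of replicates 3 and 4 were 0.07 and 0.23, against 0.13 to 0.17. Kupffer cell and macrophage marker means (9 genes) of these 2 arrays were 8.61 and 8.70, against 9.18 to 10.01 in the other 1KI tumours and 9.20 to 10.19 in wt. Both are male, as is replicate 2, in which 10 genes lay below the wt range (21.7%, against 12.5% of all genes). Stellate marker means were 8.59 to 8.89 in all 5 tumours, against 7.90 to 8.47 in 3aKO. The part of these measures in the result was not tested, and in bulk tissue fewer hepatocytes and less RNA per hepatocyte cannot be told apart.

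**Figure D1:**
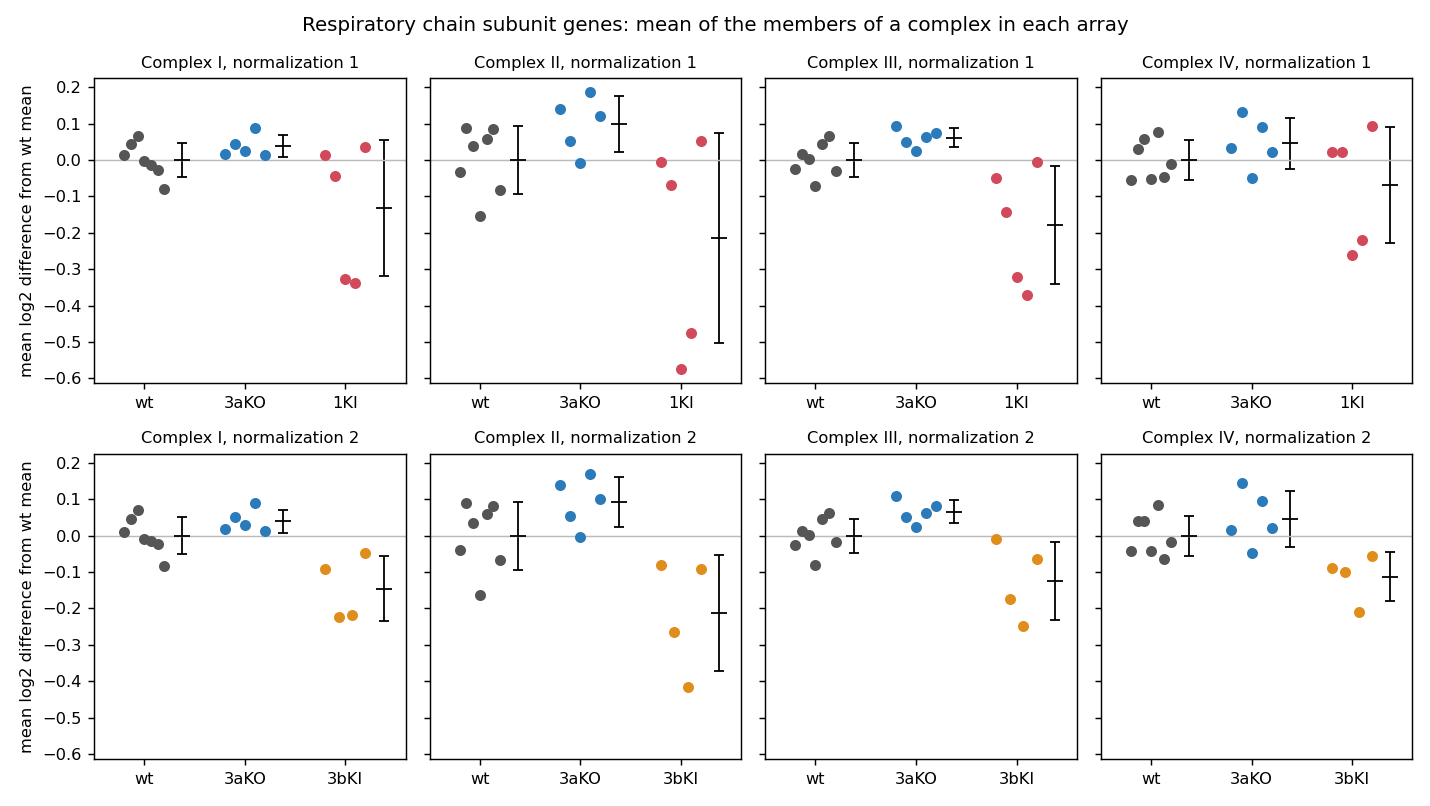
Mean log2 difference from the wt mean over the measured members of each complex, 1 point per array, for normalization 1 (top, with 1KI) and normalization 2 (bottom, with 3bKI); the bars beside the points are the mean and SD. Over all 46 genes the 1KI arrays split into 3 near 0 and 2 low ones (-0.34 and -0.33), whereas the 4 3bKI arrays lie between -0.06 and -0.24. In complex III, 1KI replicate 2 (-0.14) also lies below the wt arrays (-0.07 to 0.06).

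Complex II showed the split most clearly. Sdhb, its iron-sulfur subunit, was at 12.34, 12.29, 11.21, 11.61 and 12.32 in 1KI and between 12.05 and 12.62 (median 12.36) in wt. The SD of 0.52 in 1KI was the largest of any member in any group, with the 2 low arrays below all wt arrays and the other 3 inside the wt range. Against wt its log2 change was -0.38 ± 0.19, with an adjusted p of 0.286. The change from 3aKO was -0.52 ± 0.21, with an adjusted p of 0.322. Sdha, the flavoprotein that holds the succinate site, was at 11.90, 11.96, 11.32, 11.25 and 11.91 in 1KI, with the same 2 arrays lowest. Over the 46 genes, the SD in 1KI was above that in wt in 35 (76.1%), against 53.9% of all genes.

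In complex III, Cyc1, the cytochrome c1 subunit that hands electrons to cytochrome c, was at 12.53, 12.32, 12.09, 12.02 and 12.54 in 1KI. Its values in 3aKO were 12.72, 12.67, 12.60, 12.65 and 12.67, so that every 1KI tumour lay below every 3aKO liver. The log2 change from 3aKO was -0.36 ± 0.11, with an adjusted p of 0.238, and that from wt was -0.27 ± 0.10, with an adjusted p of 0.207. Uqcrc1 was at 11.67, 11.50, 11.48, 11.44 and 11.89 in 1KI, also below every 3aKO liver but within the wt range. Its change against 3aKO was -0.35 ± 0.09 (adjusted p = 0.213). In all, 8 genes had every 1KI tumour below every 3aKO liver (17.4%, against 1.96% of all genes): Ndufa9, Ndufb8, Ndufs1, Sdhb, Uqcrb, Uqcrc1, Uqcrc2 and Cyc1. Ndufa1 and Ndufa2 had every tumour above (all genes 1.45%).

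Members of complexes I and IV differed in how the 1KI arrays fell. Ndufb10, an accessory subunit of the distal membrane arm of complex I, had the largest change of complex I against wt, -0.33 ± 0.12 (adjusted p = 0.187), from 10.71, 10.47, 10.34, 9.88 and 10.45 in 1KI and 10.57 to 10.85 (median 10.67) in wt. Only replicate 1 lay within the wt range. Ndufs1, the large iron-sulfur subunit of the NADH-oxidising arm, was at 10.61, 10.34, 10.10, 9.86 and 10.60, with replicates 2, 3 and 4 below the lowest wt value of 10.40. Ndufa1, a small accessory subunit, went the other way, at 12.91, 12.95, 12.99, 12.97 and 12.99 in 1KI against 12.88, 12.89, 12.76, 12.80 and 12.74 in 3aKO (0.15 ± 0.06, adjusted p = 0.327). It stayed high in the 2 arrays in which most other members were low. Cox4i1, a regulatory subunit of complex IV, was at 12.77, 12.79, 12.48, 12.51 and 12.87 in 1KI, with a change of -0.17 ± 0.08 against wt (adjusted p = 0.264).

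3bKI tumours gave the called differences. Against 3aKO liver, 11 of the 46 genes were lower and 0 higher (23.9% lower, against 6.27% of all genes, and 0 higher against 2.92%). The 11 were Ndufa5, Ndufa6, Ndufa9, Ndufb3, Ndufb5, Ndufb9 and Ndufs1 of complex I, Sdha and Sdhb of complex II, Cyc1 of complex III and Cox6c of complex IV. Over the whole list 41 of 46 were below 0, with a median log2 change of -0.18 against 0.03 over all genes, and 16 had every tumour below every 3aKO liver (34.8% against 8.95%), and 0 above (6.03%). At an unadjusted p under 0.05 there were 22 (47.8%, against 29.1%). Without the 40% dimmest genes, 12 members were called, 12.3% of the genes left were lower and their median change was -0.08, on the same side of 0 as the members. After quantile normalization 30 of 46 were below 0, the median was -0.08 and 1 gene, Sdha, was called (2.87% of all genes), and with arrays centred on their median 12 were called (9.0%).

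The calls of this contrast moved with several other measures. With the actin ratio, which does not overlap between 3bKI and 3aKO, as a covariate, 0 of the 46 were called, as for 0.0% of all genes, and 0 had an unadjusted p under 0.05. Without overlap this fit separates group from ratio poorly, and its estimates for members ran from -0.99 to 0.31. Among females 0 were called (0.0824% of all genes), and with sex as a covariate 0 (0.456%), both of which drop 3bKI replicate 2. Leaving out 1 array gave between 3 and 12 genes, with 3 without 3bKI replicate 3 or 3aKO replicate 4, 4 without 3bKI replicate 2 or 3aKO replicate 2, 5 without 3aKO replicate 3 or 5, and 6 without 3aKO replicate 1. Among all genes these fits called between 364 and 931 lower, against 1140 with every array kept. The median of the members was -0.15 with the actin covariate and -0.14 among females. The part of hepatocyte content in the result was not tested.

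Against wt liver, 40 of the 46 genes were again below 0 in 3bKI with a median of -0.13 (all genes 0.01), but 0 were called lower and 0 higher (all genes: 0.978% and 1.09%). At an unadjusted p under 0.05 there were 19 (41.3%, against 20.8% of all genes), and the lowest adjusted p was 0.0594, for Ndufb5. Without wt replicate 7, whose actin ratio was the lowest of wt, 6 genes were called lower: Ndufa6, Ndufa9, Ndufb5, Ndufb9, Sdha and Cox6c. Without 3bKI replicate 1 there were 3. The count over all genes moved as well, from 178 lower with every array kept to 494 and 254 in these 2 fits. Every 3bKI tumour lay below every wt liver for Ndufb5 and Cox6c (4.3% of the 46, against 2.38% of all genes), and above for Cox6a1 (1.9% of all genes). After quantile normalization 26 of 46 were below 0, with a median of -0.04.

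**Figure D2:**
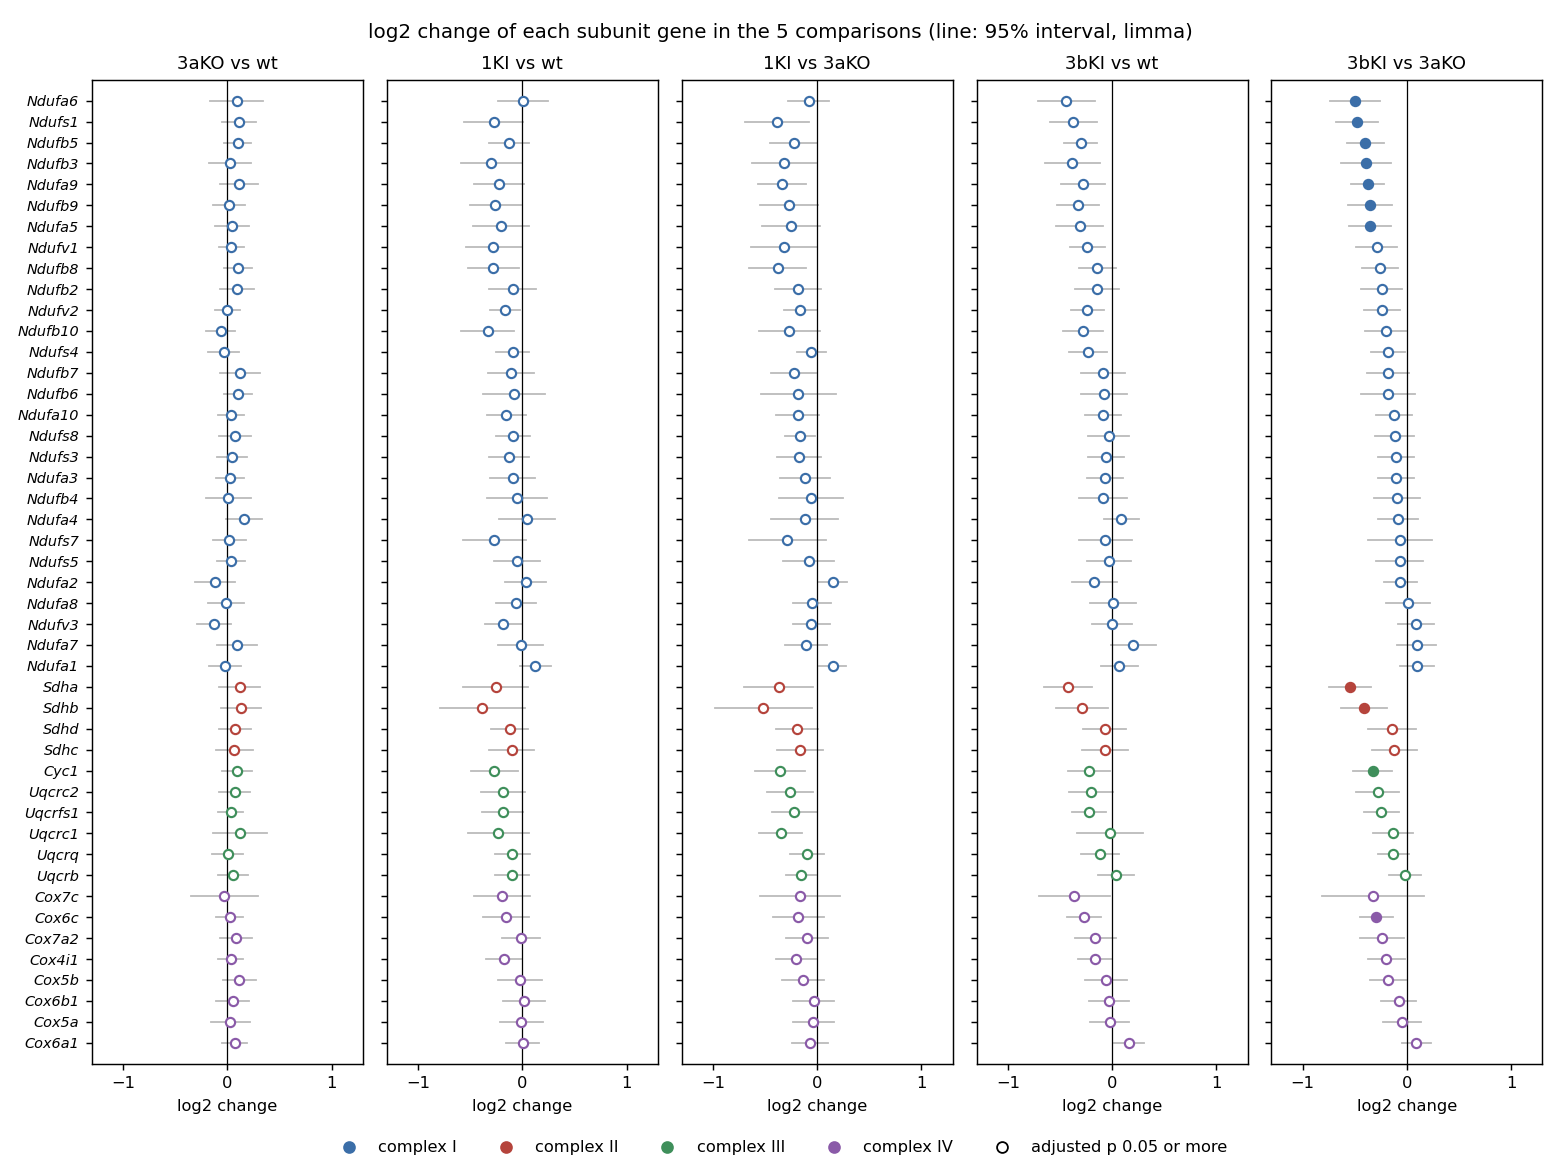
log2 change of each of the 46 genes in the 5 comparisons, coloured by complex, with the 95% interval of the limma fit; filled points have an adjusted p under 0.05. Filled points appear in 3bKI against 3aKO alone, where 11 genes of 4 complexes are below 0, and the medians run from 0.05 in 3aKO against wt to -0.18 in both tumour groups against 3aKO.

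Complex II held the largest single change. Sdha was at 11.61, 11.44, 11.24 and 11.47 in 3bKI, at 11.96, 11.88, 11.92, 12.11 and 12.06 in 3aKO and between 11.56 and 12.02 (median 11.90) in wt. All 4 tumours lay below the 3aKO livers, and 3 of them below all wt livers. The change of -0.55 ± 0.09 against 3aKO (95% interval -0.75 to -0.34, adjusted p = 0.0145) is a 1.46-fold lower level, and against wt it was -0.43 ± 0.11, with an adjusted p of 0.0616. Sdhb was at 12.14, 11.90, 11.96 and 12.32 in 3bKI and 12.43, 12.44, 12.46, 12.62 and 12.51 in 3aKO, a change of -0.41 ± 0.10 (adjusted p = 0.0349). Its wt range of 12.07 to 12.65 overlapped the tumours. The 2 membrane anchors Sdhc and Sdhd gave -0.12 ± 0.10 and -0.15 ± 0.10 and were not called.

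In complex I, 7 of the 28 genes were lower against 3aKO, 24 were below 0 and the median was -0.18. Of the 6 core subunits 1 was called: Ndufs1 was at 10.33, 10.08, 9.90 and 10.12 in 3bKI and between 10.54 and 10.66 in the 5 3aKO livers. That is a change of -0.48 ± 0.09 (adjusted p = 0.0191), and -0.37 ± 0.10 against wt (adjusted p = 0.0797). Among the other core subunits, Ndufv1, which binds NADH, gave -0.29 ± 0.09 (adjusted p = 0.0664) and Ndufs3 gave -0.11 ± 0.08 (adjusted p = 0.377).

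All 9 measured subunits of the distal membrane arm (the Ndufb genes) were below 0, and 3 were called. Ndufb5 was at 11.43, 11.18, 11.27 and 11.45 in 3bKI, below all 3aKO values (11.78, 11.77, 11.70, 11.75 and 11.65) and below the lowest wt value of 11.55. It changed by -0.40 ± 0.08 against 3aKO (adjusted p = 0.0219). Ndufb3 gave -0.39 ± 0.11 (adjusted p = 0.0475) and Ndufb9 -0.35 ± 0.10 (adjusted p = 0.0479), both close to the threshold. With the actin covariate Ndufb3 turned to 0.06 (adjusted p = 0.980), in a fit that separates group from actin ratio poorly.

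The other accessory subunits of complex I were the most divided group, with 9 of 13 below 0 and 3 called. Ndufa6, an accessory subunit of the matrix arm, was at 11.13, 10.84, 10.85 and 11.13 in 3bKI and at 11.46, 11.56, 11.37, 11.72 and 11.32 in 3aKO (-0.50 ± 0.11, adjusted p = 0.0261, a 1.41-fold lower level). In 1KI it was not low: its change against wt was 0.01 ± 0.11, and it was within or above the wt range in both low 1KI arrays. Ndufa9, at the junction of the 2 arms, was at 10.75, 10.61, 10.76 and 10.82 in 3bKI and between 11.05 and 11.15 in 3aKO (-0.38 ± 0.07, adjusted p = 0.0192). Of the genes above 0, Ndufa1 gave 0.09 ± 0.07, Ndufa7 0.09 ± 0.08, Ndufv3 0.09 ± 0.08 and Ndufa8 0.01 ± 0.10, and none was called.

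**Figure D3:**
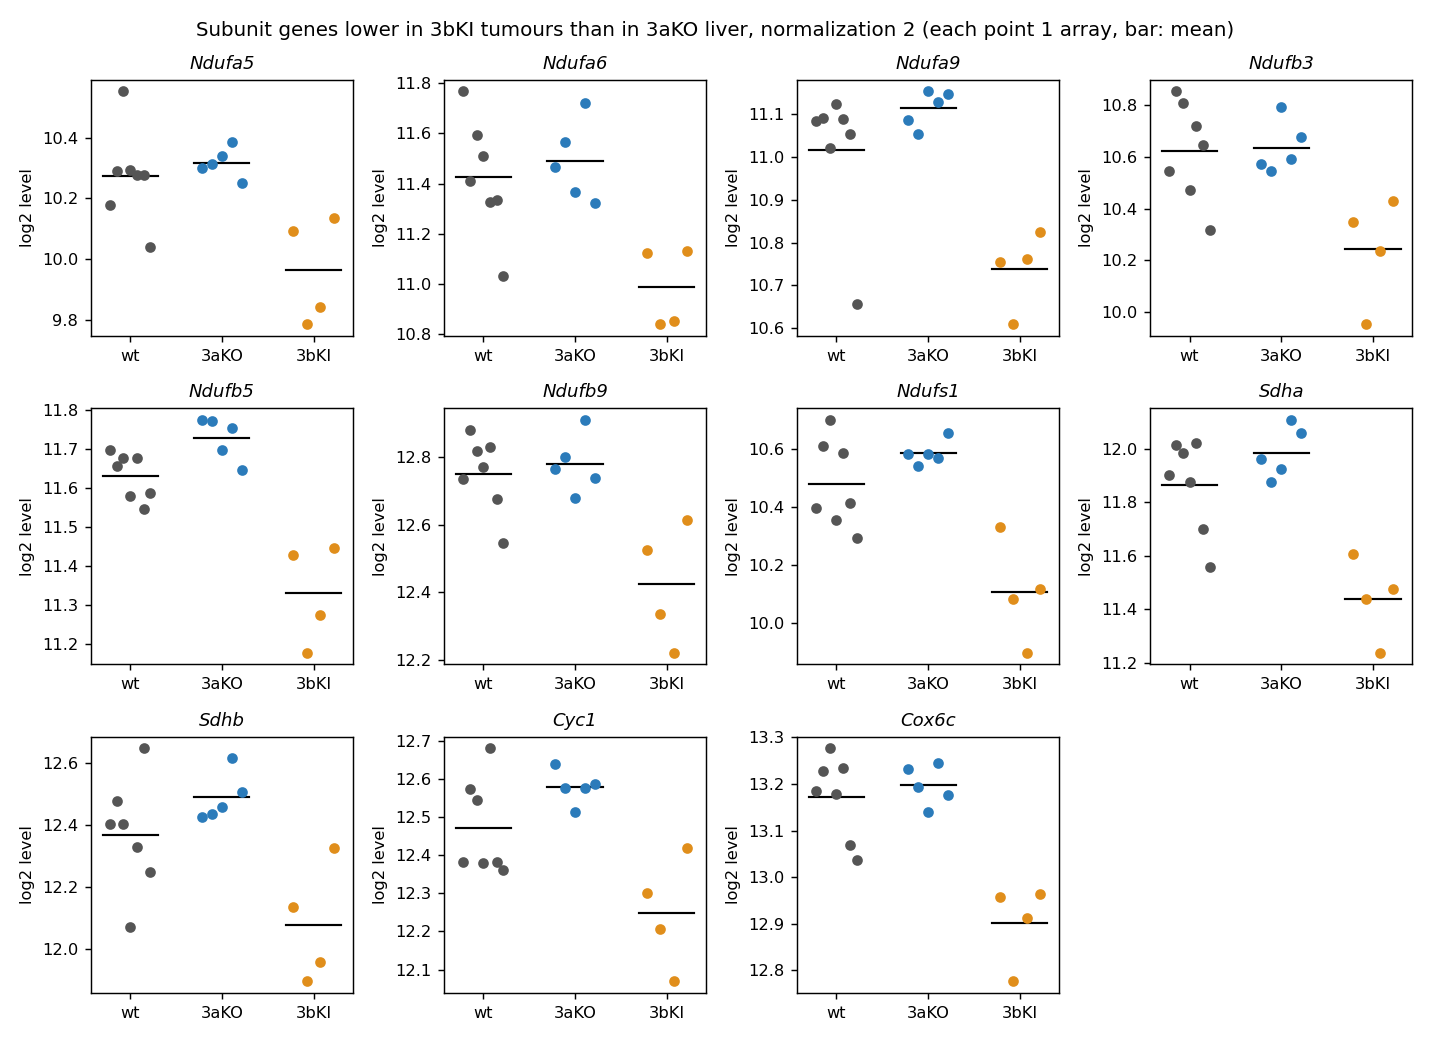
log2 level of the 11 genes lower in 3bKI than in 3aKO, in each array of normalization 2, with the group mean as a bar. In every panel the 4 3bKI points lie below the 5 3aKO points, and in 2 of them (Ndufb5 and Cox6c) also below all 7 wt points; each panel has its own axis, which does not start at 0.

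In complex III all 6 genes were below 0 against 3aKO, with a median of -0.19 and 1 call. Cyc1 was at 12.30, 12.21, 12.07 and 12.42 in 3bKI and at 12.64, 12.58, 12.51, 12.58 and 12.59 in 3aKO, a change of -0.33 ± 0.08 (adjusted p = 0.0400). Its wt range of 12.36 to 12.68 overlapped the tumours. Uqcrfs1, the Rieske iron-sulfur protein, gave -0.25 ± 0.08 (adjusted p = 0.0700) with every tumour below every 3aKO liver. Uqcrb, a small subunit, gave -0.02 ± 0.07.

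In complex IV the median was -0.19, 7 of 8 genes were below 0 and Cox6c was called. Cox6c, a small subunit of the membrane domain, was at 12.96, 12.78, 12.91 and 12.96 in 3bKI, at 13.23, 13.19, 13.14, 13.25 and 13.18 in 3aKO and at 13.04 or higher in wt. Against 3aKO its change was -0.29 ± 0.07, with an adjusted p of 0.0346. The change from wt was -0.27 ± 0.07, with an adjusted p of 0.0764. Cox6a1, the liver form of subunit VIa, was the 1 member of complex IV above 0: it was at 13.44, 13.52, 13.52 and 13.53 in 3bKI, above the wt range of 13.24 to 13.42 (0.16 ± 0.07 against wt, adjusted p = 0.186). Cox7c, among the dim genes, gave -0.33 ± 0.22 (adjusted p = 0.348), with an SD of 0.39 in 3bKI.

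The level was not even among the 4 3bKI tumours. The mean over the 46 genes was -0.08, -0.20, -0.24 and -0.06 relative to wt in replicates 1 to 4, and 10, 28, 29 and 8 genes lay below the wt range. These are 21.7%, 60.9%, 63.0% and 17.4% of the 46, against 14.3%, 20.4%, 19.2% and 11.7% of all genes, so replicates 1 and 4 lay nearer the background. In replicates 2 and 3, 23 genes lay below it in both, and 12 in neither: Ndufa1, Ndufa2, Ndufa4, Ndufa7, Ndufa8, Ndufb7, Ndufs8, Ndufv3, Uqcrb, Uqcrc1, Cox5a and Cox6a1. Hepatocyte marker means were 12.67, 12.67, 12.56 and 12.79 in the 4 tumours, below all 3aKO livers in each. Kupffer cell and macrophage marker means were 9.67, 9.36, 11.21 and 9.77, against 9.34 to 10.54 in 3aKO and 9.10 to 10.11 in wt. On the first principal component of normalization 2 the tumours lay at 16.3, 38.5, 38.3 and 22.5. The wt arrays lay between -31.8 and 14.0 there, and 3aKO between -28.5 and 6.92. The part of these measures in the result was not tested.

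The comparisons 1KI against wt and 3bKI against 3aKO share no array, although wt and 3aKO entered both normalizations. Of the 46 genes 37 were below 0 in both, against 25.0% of all genes. Of the 11 genes called in 3bKI 10 were below 0 in 1KI against wt, a share near that of all members (40 of 46). Across the 46 genes the 2 sets of log2 changes correlated with r = 0.585, against 0.41 across all genes. The other pair without a shared array, 1KI against 3aKO and 3bKI against wt, had 39 of 46 below 0 in both (30.0% of all genes) and r = 0.501, close to 0.455 across all genes. Genes are not independent replicates, so this describes the lists only. The exception among the 11 was Ndufa6.

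Other probe sets of the same genes did not always repeat the change. With every probe set tested, 17 of the 97 probe sets of members were lower in 3bKI than in 3aKO and 1 was higher. Among all 34945 probe sets 2211 were lower and 914 higher. Sdha had 2 bright probe sets that were both lower (-0.55 ± 0.09 and -0.41 ± 0.09) and 2 dim ones that were not (-0.11 ± 0.14 and 0.02 ± 0.10). For Cox6c a second probe set with a mean level of 11.16 gave 0.02 ± 0.10, and the call rests on 1 probe set. For Cox5b the 4 bright probe sets lay between -0.29 and -0.15, and 1 dim probe set, with a mean of 3.54, was higher by 0.45 ± 0.12 (adjusted p = 0.0438). Ndufb9 had 2 bright probe sets at -0.35 and -0.28 and a dim one at 0.01, and Ndufs4 had its brightest at -0.18 and its dimmest at 0.16. Conversely, Ndufb8, Ndufv1, Ndufv2 and Uqcrc2 were not called in the main fit. Each had at least 1 probe set called lower when every probe set was tested. In 1KI against wt, probe sets of opposite sign were found in 4 of the 28 genes with several. In 3 of these (Cox5b, Ndufs4 and Sdha) at least 1 probe set had an unadjusted limma p under 0.05. Against 3aKO this held for 2 of 4 such genes, Cox5b and Sdha. No probe set of a member was called in 1KI.

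Tissue isoforms of complex IV subunits are normally low in liver. Cox6b2, the testis form of Cox6b1, was between 4.99 and 7.22 (median 5.38) in wt, with replicate 7 as the highest, and between 4.79 and 5.62 in 3aKO. In 1KI it was at 7.69, 9.65, 6.89, 5.43 and 5.53, and in 3bKI, in normalization 2, at 8.39, 5.36, 6.90 and 8.69. So 3 of 5 1KI tumours and 3 of 4 3bKI tumours lay above all 3aKO livers, and the rest did not. None of its changes passed: 3bKI gave 2.11 ± 0.59 relative to 3aKO (adjusted p = 0.0510) and 1.81 ± 0.58 relative to wt (adjusted p = 0.112), and 1KI gave 1.48 ± 0.65 relative to wt (adjusted p = 0.240). The highest values were in 1KI replicate 2 and 3bKI replicate 4, whose means over the 46 subunit genes were -0.05 and -0.06 relative to wt. Cox6b1 itself stayed between 12.78 and 13.02 in 3bKI, with a change of -0.08 ± 0.08 against 3aKO. Cox4i2, Cox6a2, Cox7a1, Cox8b and Ndufa4l2 were called in none of the comparisons. In 3bKI against 3aKO they gave 0.26, 0.27, -0.18, 0.13 and 0.11.

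**Figure D4:**
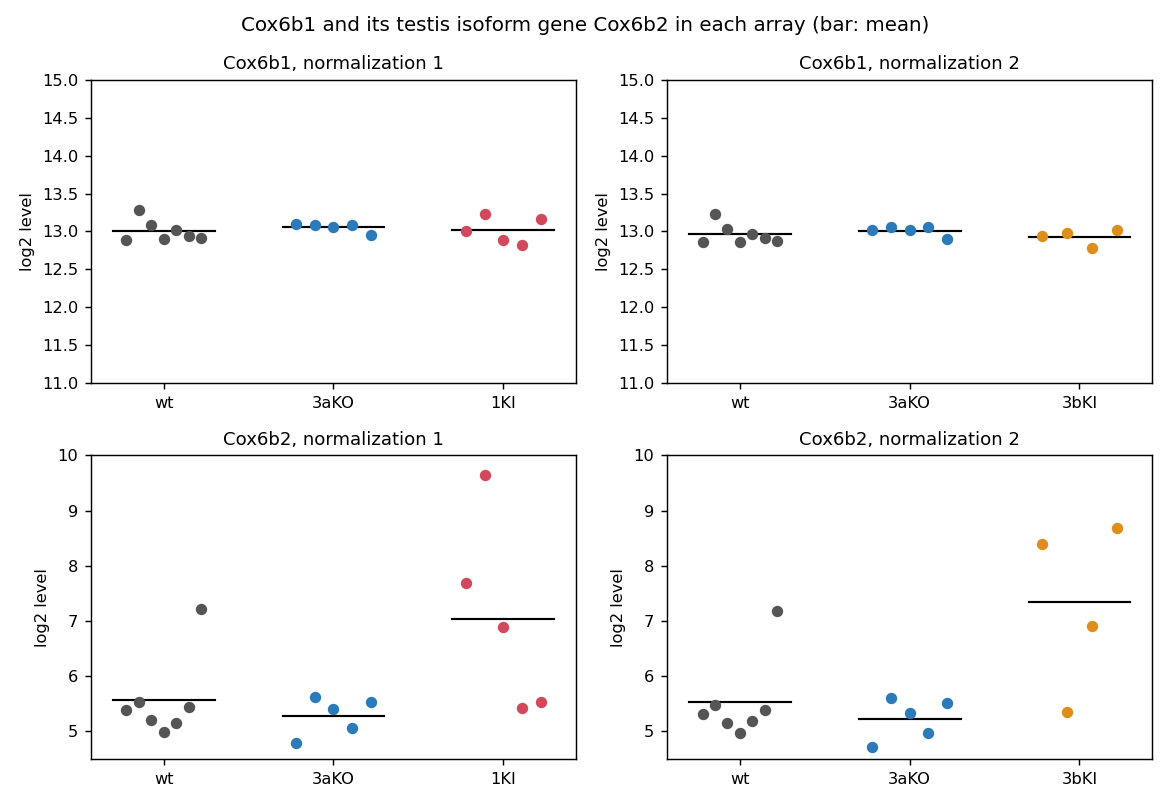
log2 level of Cox6b1 (top) and of its testis isoform gene Cox6b2 (bottom) in each array of normalization 1 (left) and 2 (right), with group means as bars. Cox6b2 is at 6.89 or above in 3 of 5 1KI tumours, at 6.90 or above in 3 of 4 3bKI tumours and at 7.22 in wt replicate 7, while the Cox6b1 groups overlap.

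Other genes of the pathway were read from lists set by name. Of 12 further subunits of the chain, 1 was lower in 3bKI than in 3aKO, Cox8a of complex IV (-0.37 ± 0.09, adjusted p = 0.0335), and the median was -0.16. That is 8.33% of the list, near the 6.27% of all genes. Of 18 ATP synthase genes 2 were lower, the catalytic-head subunit Atp5a1 (-0.33 ± 0.09, adjusted p = 0.0443) and Atp5e (-0.31 ± 0.07, adjusted p = 0.0323), with a median of -0.15. Their share of 11.1% is close to the 12.3% of genes called lower once dim genes are left out. ND5, the 1 mitochondrially encoded subunit measured, gave -0.23 ± 0.08 (adjusted p = 0.103). In 1KI none of these lists had a called gene against wt or 3aKO.

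Among genes needed to build the chain, of 42 assembly factors 10 were lower in 3bKI than in 3aKO and 1 higher. The share lower was 23.8%, against 6.27% of all genes and 12.3% without the dim ones. Lrpprc, which stabilises mitochondrial mRNA, was lower by the largest amount, -0.70 ± 0.12 (adjusted p = 0.0145), and also against wt, -0.57 ± 0.12 (adjusted p = 0.0341). Timmdc1, a complex I assembly factor, was the higher one (0.61 ± 0.14, adjusted p = 0.0302). Of 16 regulators of mitochondrial biogenesis 4 were lower (25.0%, against the same 2 shares). Among them were the mitochondrial RNA polymerase Polrmt (-0.52 ± 0.10, adjusted p = 0.0205), its cofactor Tfb2m (-0.51 ± 0.10, adjusted p = 0.0207) and Gabpa (-0.47 ± 0.10, adjusted p = 0.0225). Tfb2m and Gabpa were also lower against wt (adjusted p = 0.0362 and 0.0391).

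Of 13 TCA cycle enzymes 4 were lower in 3bKI than in 3aKO (30.8%, against 6.27% of all genes and 12.3% without the dim ones). All 13 were below 0 and the median was -0.27. Dld, a subunit shared by several dehydrogenases, gave -0.44 ± 0.10 (adjusted p = 0.0278), Idh3b -0.34 ± 0.08 (adjusted p = 0.0353) and Sucla2 -0.34 ± 0.09 (adjusted p = 0.0460). Of 72 mitochondrial ribosome genes 9 were lower (12.5%, against 6.27% of all genes and 12.3% without the dim ones), led by Mrpl15 (-0.58 ± 0.13), Mrpl9 (-0.56 ± 0.13) and Mrps9 (-0.55 ± 0.12). Mrps9 was also lower against wt (-0.42 ± 0.10, adjusted p = 0.0468). All calls of 3bKI against wt were lost with the actin covariate, where 0 of all genes were lower against 178 without it, and 17 were lower with sex as a covariate and 5 among females.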

How the data were processed

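RNA of livers and tumours was hybridised to 21 Affymetrix mouse arrays, from 5 ug total RNA extracted with Trizol, per the labels. The authors deposited log2 values of 45101 probe sets in 33 columns, as 2 normalizations of which wt and 3aKO arrays appear in both; the normalization method and software are not given in the sources used here. Over the 12 shared arrays the median shift between them was -0.11.

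Of the probe sets 34945 carried 1 gene symbol, and each of 18193 genes was read from its brightest one. Groups came from the labels. Each pair of groups was fitted alone with limma 3.58.1 (lmFit, eBayes) in R 4.3.3 over all genes, two-sided, with Benjamini-Hochberg adjustment over 18193 genes and a call at an adjusted p under 0.05. Errors after ± are moderated SE. The number of arrays limits the precision. The fit was tested on simulated data. 1KI and 3bKI were not compared, since they share no normalization.

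The members and lists were chosen with earlier results of these data known. Genes are named when called (up to 4 per complex and comparison), with the lowest p or largest change of a complex, with the highest or lowest wt level of a complex or the largest SD, or when their probe sets disagree; of other lists up to 3 called genes, or the one of lowest p. Genes named because of a promoter match, a group range or a role lie outside that rule. The main fits treat the arrays as unpaired, and whether equal replicate numbers mark pairs was not tested. Alternatives were quantile normalization, centring, a filter on the 40% dimmest genes, the mean of probe sets, every probe set, a fit of 3 groups, trend and robust eBayes, array weights, the replicate block, sex, females only, the actin ratio, 1KI replicates 3 and 4 left out, normalization 2 and each array left out.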

Additional observations from a re-analysis of the deposited data

Results flagged for a closer look

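Of 132 sets of values of named genes within a group, 6 held an array far from the rest by Dixon's criterion, where chance gives about 1 in 20. They are 3 genes, each found in both normalizations. Ndufa9 was lowest in wt replicate 7, at 10.75 in normalization 1 (next array 11.11) and 10.66 in normalization 2 (next array 11.02). Cox6b2 was highest in the same array, at 7.22 (next 5.53) and 7.19 (next 5.47). Uqcrc1 was highest in 3aKO replicate 1, at 12.07 (next 11.94) and 12.02 (next 11.88). wt replicate 7 also had the lowest actin ratio of wt, 0.63 in normalization 1, and 17 of the 46 subunit genes had their lowest wt value there.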

How the results depend on the processing

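In 3aKO and 1KI against wt and in 1KI against 3aKO the count of called members was 0 under every setting run. In 3bKI against 3aKO, 11 genes were lower. The count fell to 1 after quantile normalization and 6 with array weights, to 0 with sex as a covariate, among females or with the actin covariate, and lay between 3 and 12 with 1 array left out. The member count higher there became 1 when every probe set was tested. In 3bKI against wt, 0 genes were lower, but 5 with centred arrays, 1 without dim genes, 8 with all 3 groups in the fit, 1 with array weights and 0 to 6 with 1 array left out. Over all genes the count lower was 178, and 548, 215, 543 and 412 in these settings in turn. It lay between 16 and 494 with 1 array left out. The replicate number as a block gave 0 lower members in 3bKI against 3aKO (31 of all genes) and 1 against wt (406 of all genes). Deviations of same-numbered arrays from their group means correlated at 0.063 to 0.278 and -0.147 to 0.212. These were not set beside arrays of unlike number, so whether the numbers pair the arrays was not tested. The median change of 3aKO against wt was -0.0058 among females (0.04 to 0.06 with 1 array left out), where Cox5b (-0.011) and Sdhb (-0.029) turned below 0. For 1KI against wt the median was -0.17 with centred arrays, -0.059 with weights, -0.0081 without replicates 3 and 4, and -0.17 to -0.078 with 1 array left out. For 1KI against 3aKO it was -0.12 after quantile normalization, -0.10 with weights, -0.12 with the actin covariate, -0.049 without replicates 3 and 4, and -0.23 to -0.13 with 1 array left out. With sex as a covariate the 1KI median was -0.12 against wt (40 of 46 below 0) and -0.16 against 3aKO (44 of 46). Among females it was -0.017 and -0.0030. That fit holds 2 1KI arrays and also lacks replicates 3 and 4, which are male. The median for 1KI thus moved little with sex as a covariate. For 3bKI the median was -0.037 (wt) and -0.075 (3aKO) after quantile normalization, -0.20 and -0.24 with centring, -0.18 to -0.091 and -0.22 to -0.15 with 1 array left out, and -0.14 against 3aKO with sex or among females. Ndufb3 turned to 0.06 in 3bKI against 3aKO with the actin covariate, whose values do not overlap between these groups. The cause of these shifts was not tested. Of the values for single genes, 638 kept direction and side of the threshold, 80 lost and 15 gained a call, and 3 turned sign. Signals near background limit Ndufb4, Cox7c and Ndufs5.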
